A study of Mus musculus with 17 samples.

Results

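To evaluate the genes that carry sodium, calcium and pacemaker currents in inflamed spinal cord, the subunits of voltage-gated sodium channels (Scn), voltage-gated calcium channels (Cacna and Cacnb), hyperpolarization-activated HCN channels and the leak channel Nalcn were read from a microarray series. Members were all genes whose symbol fits these families and that had at least 1 probe set annotated to them alone, which gave 30 of 18194 genes, with 74 probe sets in all. For each gene the probe set with the highest mean log2 signal over the 17 arrays was used, and 21 of the 30 genes had several. The symbols alone chose the members, and no measured difference between groups entered that choice.

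RNA was taken from a 4.5 mm piece of thoracic cord of female C57BL/6 mice, aged 8 weeks per the labels (C57BL/6J in the study's methods). The groups were naïve mice without treatment (n = 6), mice with targeted EAE that received an isotype control antibody (palivizumab, n = 5) and mice with targeted EAE that received a humanized antibody against repulsive guidance molecule a (anti-RGMa, n = 6). In targeted EAE a mouse immunized with a myelin oligodendrocyte glycoprotein peptide in complete Freund's adjuvant receives TNF-α and IFN-γ into the cord through a laminectomy, and pertussis toxin into a vein. Both antibodies were given intravenously at 10 mg/kg from 9 days post cytokine injection (DPI), and cords were taken at 14 DPI. Against naïve cord, the effects of immunization, surgery, cytokines, toxin and antibody cannot be told apart. Nothing in the labels states how samples were assigned to animals, so that the p-values measure the spread between these samples.

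Voltage-gated sodium channels open on depolarization and carry the upstroke of the action potential. Their large α subunit forms the pore, and smaller β subunits anchor it and tune its gating. In voltage-gated calcium channels the α1 subunit is the pore, while β subunits and α2δ subunits bring it to the membrane, and Cav2 channels trigger transmitter release at nerve endings. HCN channels open on hyperpolarization and set rhythm and resting properties, and Nalcn passes a sodium leak that keeps neurons near threshold. In spinal cord most of these genes belong to neurons, Scn10a and Scn11a to sensory neurons of the dorsal root ganglion outside the cord, and Cacna1s to skeletal muscle.

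Signals were taken to log2 and compared with limma over all genes, and a gene was called where its Benjamini-Hochberg adjusted p was under 0.05. Array medians ranged from 132 to 165 on the linear scale, and 13 of the 30 members had a mean below the median of all genes (8.34 log2), where background weighs more. Neural tissue, though not cord in particular, was borne out by 14 neuron markers. Their mean lay between 12.89 and 12.96 log2 in naïve mice. It ran from 11.45 to 12.20 in isotype control mice and from 11.69 to 12.61 in anti-RGMa mice. In a piece of tissue, fewer neurons and less RNA per neuron cannot be told apart. Arrays standing apart were isotype control 1 and 5 and anti-RGMa 6, with the lowest neuron markers (11.45, 11.52 and 11.69). The mean of 14 macrophage and monocyte markers was highest in the same arrays of each group, at 11.87, 11.61 and 11.66. Muscle markers were raised in isotype control 3, 4 and 5, and dorsal root ganglion markers in anti-RGMa 1 and 6. Fits without them were run, and some of the calls that changed are given.

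The 250 bases before the transcription start are shown for 4 genes that the results turn on and that have a single promoter entry: Scn4b and Cacna2d3, which were lower in both EAE groups, Hcn2, which was not, and Cacna1s, which was higher. The sequences come from RefSeq (GRCm38.p6), 5′ to 3′ on the gene's strand. Capitals mark the GC box GGGCGG and the E-box CANNTG, searched on both strands, and neighbouring matches may share bases.
Scn4b (chr9:45138374-45138623, plus strand): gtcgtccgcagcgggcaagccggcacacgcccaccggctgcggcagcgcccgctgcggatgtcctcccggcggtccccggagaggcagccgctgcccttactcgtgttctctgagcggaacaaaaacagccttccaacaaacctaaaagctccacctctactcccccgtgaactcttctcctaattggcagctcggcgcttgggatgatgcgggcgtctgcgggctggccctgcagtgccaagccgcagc
Cacna2d3 (chr14:29721865-29722114, minus strand): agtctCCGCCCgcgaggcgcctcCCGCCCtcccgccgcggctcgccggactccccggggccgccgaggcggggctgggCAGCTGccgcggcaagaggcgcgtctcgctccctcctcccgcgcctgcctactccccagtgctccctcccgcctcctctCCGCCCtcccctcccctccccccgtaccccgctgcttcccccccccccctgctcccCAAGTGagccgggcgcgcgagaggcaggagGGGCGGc
Hcn2 (chr10:79716384-79716633, plus strand): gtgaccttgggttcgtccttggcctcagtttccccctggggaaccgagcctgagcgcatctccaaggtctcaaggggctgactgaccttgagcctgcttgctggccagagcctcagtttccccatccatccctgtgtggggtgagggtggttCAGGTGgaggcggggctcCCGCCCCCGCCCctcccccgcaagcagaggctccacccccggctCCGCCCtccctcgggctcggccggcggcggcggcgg
Cacna1s (chr1:136052561-136052810, plus strand): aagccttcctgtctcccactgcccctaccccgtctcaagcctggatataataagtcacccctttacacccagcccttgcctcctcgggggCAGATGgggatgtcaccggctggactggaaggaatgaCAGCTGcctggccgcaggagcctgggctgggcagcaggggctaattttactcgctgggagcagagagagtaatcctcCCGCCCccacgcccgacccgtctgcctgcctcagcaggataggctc
A promoter entry was matched for 23 of the 30 members, with 32 entries in all. A GC box was found in 13 of the 32, against 32.7% of the 32851 promoters of that length, and an E-box in 21, against 66.2%. Scn4b held 23 CG dinucleotides and neither motif, and its level fell in EAE. Cacna2d3, whose level also fell, held 30 CG dinucleotides with 4 GC boxes and 2 E-boxes. Hcn2 held 16 with 3 GC boxes and 1 E-box, and Cacna1s held 9 with 1 GC box and 2 E-boxes. The median over all promoters was 6 CG dinucleotides, and all 4 genes lie above it. This does not hold for the members as a set. Scn1a with 4, Scn2b with 1 and Nalcn with 2 lie below it, and their levels were also lower in both EAE groups.

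In isotype control EAE mice most channel subunits of central neurons were lower than in naïve mice. Adjusted p was under 0.05 for 18 of 30 members in the lower direction, which is 60% against a background of 27.2% of all genes, and for 1 member in the higher direction, against 24.6%. The median log2 fold change of the members was -0.66, and that of all genes was -0.04. In 17 members every isotype control array lay below every naïve array (background 20.4%), and in Cacna1s every one lay above (background 18.3%). In anti-RGMa EAE mice 15 members were lower than in naïve mice (background 21.6%) and 1 was higher (background 20.3%), with a median of -0.43 against -0.03 for all genes. In 13 members every anti-RGMa array lay below every naïve array (background 13.8%). The 15 members are the 18 without Cacna1c, Cacna2d1 and Cacnb1. The same naïve arrays serve both comparisons.

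**Figure D1:**
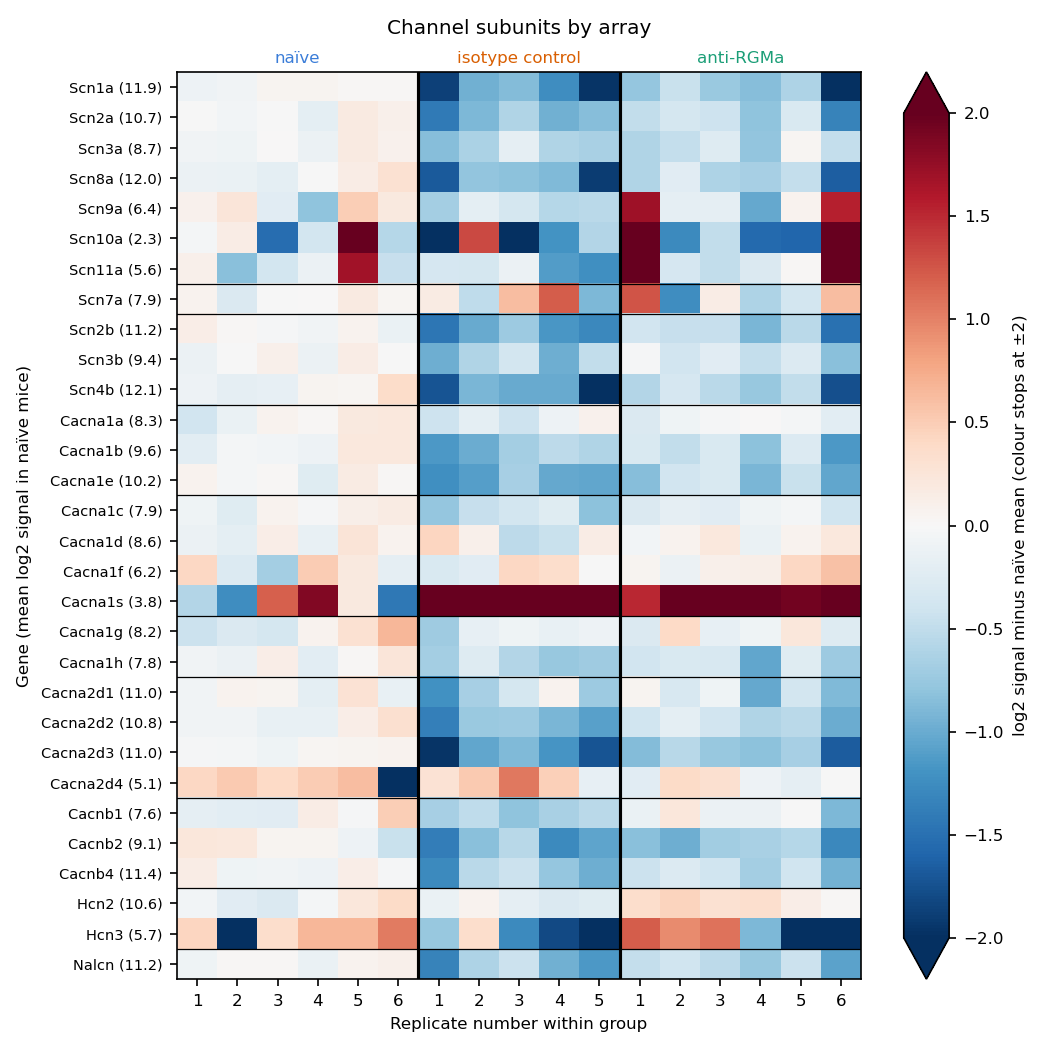
Each row is a member, grouped by family, and each column an array. Colour gives the log2 signal minus the naïve mean, with the naïve mean in brackets, and most neuronal rows are blue in the EAE arrays, most deeply in isotype control 1 and 5 and anti-RGMa 6, while Cacna1s is red.

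Among the sodium channel α subunits, the 4 of central neurons (Scn1a, Scn2a, Scn3a and Scn8a) were lower in both EAE groups. Scn1a encodes Nav1.1, the channel of fast-spiking interneurons and of motor neurons. Its log2 signal in naïve mice ran from 11.83 through a median of 11.97 to 12.00. It was 10.07, 10.98, 11.07, 10.70 and 9.97 in the isotype control arrays. In anti-RGMa mice it ran from 9.94 through 11.18 to 11.49. All 11 EAE arrays were below all naïve arrays, and the lowest were isotype control 1 and 5 and anti-RGMa 6. The log2 fold change was -1.38 (SE 0.25, adjusted p = 0.000255) in isotype control mice, which is 38.4% of the naïve level, and -0.90 (SE 0.24, adjusted p = 0.0066) in anti-RGMa mice.

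Scn8a encodes Nav1.6, the main channel of nodes of Ranvier and of the distal initial segment. In naïve mice it ran from 11.79 through 11.92 to 12.29. In the isotype control arrays it was 10.30, 11.19, 11.16, 11.10 and 10.08, and in anti-RGMa mice it ran from 10.33 through 11.37 to 11.76. The EAE arrays did not overlap the naïve arrays. It was at 43.2% of the naïve level in isotype control mice (log2 fold change -1.21, SE 0.25, adjusted p = 0.000654) and at 61.3% in anti-RGMa mice (-0.71, SE 0.24, adjusted p = 0.0244). The second call was lost without anti-RGMa 6, where the log2 fold change was -0.52 and adjusted p = 0.0506, and without naïve 6 (-0.65, adjusted p = 0.0522). Scn2a, the Nav1.2 channel of unmyelinated axons, fell by 0.95 log2 in isotype control mice and by 0.62 in anti-RGMa mice. Scn3a, Nav1.3, which is most abundant in the embryo, fell by 0.58 and 0.43, and with its probe sets averaged the direction turned (0.22 and 0.06).

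The probe sets of Scn8a disagreed, and all 5 are given. The one used above, 1423515_at, and the probe sets 1457412_at, 1439889_at and 1451894_a_at were lower in both EAE groups. Probe set 1457412_at had a mean of 10.94 in naïve, 9.97 in isotype control and 10.29 in anti-RGMa mice. The means of 1439889_at were 9.90, 8.49 and 9.08 in the same order, and those of 1451894_a_at were 9.60, 8.08 and 8.71. Over these 4 the log2 fold change ran from -0.97 to -1.53 in isotype control mice and from -0.65 to -0.90 in anti-RGMa mice, all with adjusted p under 0.05 in a fit over 34958 probe sets (background for lower calls 26.3% and 20.9%).

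The fifth probe set of Scn8a, 1442208_at, was dim and ran otherwise. Its log2 signal was 4.95, 2.43, 5.32, 3.37 and 2.99 in the isotype control arrays, from 2.22 through 3.07 to 4.67 in naïve mice and from 1.22 through 2.31 to 3.40 in anti-RGMa mice. All 3 groups overlapped. Against naïve its log2 fold change was 0.63 (SE 0.57, adjusted p = 0.396) in isotype control mice and -0.97 (SE 0.54, adjusted p = 0.177) in anti-RGMa mice, so that neither was called. Between the antibody groups it was lower with anti-RGMa by limma (-1.60, SE 0.57, unadjusted p = 0.0124), while 1439889_at was higher (0.58, SE 0.22, unadjusted p = 0.0196). The signals of 1442208_at are low, so that the size of its difference is uncertain, and with 32 added to each signal before log2 it was -0.40 (limma unadjusted p = 0.0221). After adjustment by limma 0 of the 34958 probe sets passed, while 6.08% were lower and 7.38% higher at an unadjusted p under 0.05.

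**Figure D2:**
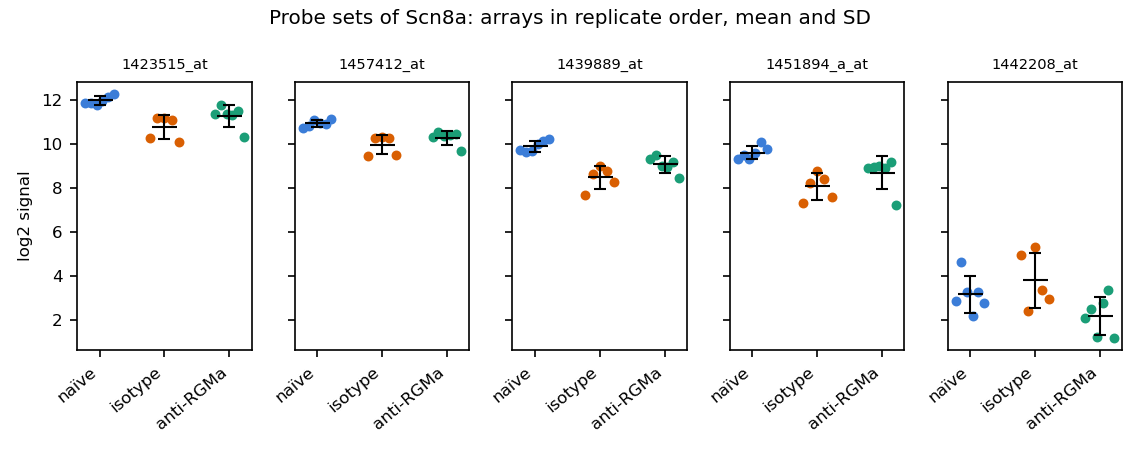
Log2 signal of the 5 probe sets of Scn8a, with 1 point per array in replicate order, and the mean with its SD per group. The 4 probe sets on the left lie between 7.23 and 12.29 and fall in EAE, and the fifth lies between 1.22 and 5.32, with its groups overlapping.

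The sodium channel α subunits of sensory neurons were dimmer than those of the cord and were not called. Scn9a (Nav1.7), Scn10a (Nav1.8) and Scn11a (Nav1.9) carry currents of nociceptors, and none of them had an adjusted p under 0.05 in any comparison. In isotype control mice their means lay below naïve, as did those of the cord subunits. The log2 differences were -0.47, -1.03 and -0.63 in that order (SE 0.41, 1.16 and 0.77). Scn11a was 5.29, 5.26, 5.49, 4.50 and 4.38 in the isotype control arrays, and ran from 4.78 through 5.37 to 7.30 in naïve mice and from 5.13 through 5.49 to 9.62 in anti-RGMa mice. The high values were those of anti-RGMa 1 (9.62) and 6 (8.71) and, less so, naïve 5 (7.30). Scn10a reached 7.21 and 5.43 in the same anti-RGMa arrays and 4.67 in naïve 5, and 3.64 or less in all others. Scn9a reached 8.12 and 7.99 in anti-RGMa 1 and 6 and at most 6.93 elsewhere. Of its other probe sets, 1442809_at (7.01 and 6.97) and the dim 1442333_a_at (5.80 and 5.48) were also highest in these arrays. Probe sets 1457819_at (5.77 and 6.10) and 1421660_at (4.43 and 5.37) were not highest in both. Of 8 dorsal root ganglion markers 5 were measured, and their mean was 8.86 in anti-RGMa 1, 7.56 in anti-RGMa 6, 7.23 in naïve 5 and 5.83 to 6.62 in the other arrays. None of the 5 was at 0, and Avil, a marker of sensory neurons, was 10.05 and 9.15 in those anti-RGMa arrays and 7.20 in naïve 5. The part of ganglion tissue in the levels of these channels was not tested.

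Scn7a encodes Nax, a sodium sensor of glia and of peripheral cells, and its spread widened in EAE. It ran from 7.66 to 8.11 in naïve mice, from 7.05 to 9.14 in isotype control mice and from 6.69 to 9.19 in anti-RGMa mice. The means differed by 0.12 and -0.04 log2 from naïve, well within that spread. The highest values were those of anti-RGMa 1 (9.19) and isotype control 4 (9.14), then isotype control 3 (8.56) and anti-RGMa 6 (8.55). In the dimmer probe set 1427495_at the SD was 0.91 in naïve, 0.70 in isotype control and 1.62 in anti-RGMa mice. A wider spread was not particular to Scn7a, since the SD of Scn1a was 0.07, 0.51 and 0.55 in the same order.

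All 3 measured sodium channel β subunits were lower in both EAE groups. Scn4b, whose protein drives resurgent current in fast-firing neurons, ran from 11.97 through 12.11 to 12.51 in naïve mice. It was 10.42, 11.23, 11.13, 11.13 and 9.85 in the isotype control arrays and ran from 10.39 through 11.58 to 11.81 in anti-RGMa mice. The EAE arrays did not reach the lowest naïve array. Scn4b was at 38.1% of the naïve level in isotype control mice (log2 fold change -1.39, SE 0.27, adjusted p = 0.000401) and at 59.7% in anti-RGMa mice (-0.74, SE 0.26, adjusted p = 0.0279). The second call was lost without naïve 6 (-0.67, adjusted p = 0.0602) and without anti-RGMa 6 (-0.54, adjusted p = 0.0597). Scn2b, a β subunit linked to the pore by a disulfide bond, was at 45.9% and 61.3% of the naïve level (-1.12 and -0.71, adjusted p = 7.93e-05 and 0.00348). Scn3b, which associates without such a bond, was at 62.4% and 77.6% (adjusted p = 0.000686 and 0.0371), and its call in anti-RGMa mice was lost in 7 of the 17 fits without a single array. A dimmer second probe set of Scn3b showed a larger difference, -1.59 and -1.66 log2.

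The calcium channel α1 subunits differed within each family, where some were called and others were not. Of the Cav2 subunits, which act at nerve endings, Cacna1b (N-type) fell by 0.79 log2 in isotype control mice and by 0.55 in anti-RGMa mice. Cacna1e (R-type) was 9.01, 9.14, 9.57, 9.21 and 9.19 in the isotype control arrays, from 9.99 through 10.26 to 10.40 in naïve mice and from 9.20 through 9.59 to 9.93 in anti-RGMa mice, again without overlap of EAE and naïve. Its log2 fold changes were -1.01 (SE 0.14, adjusted p = 2.68e-05) and -0.66 (SE 0.13, adjusted p = 0.00119). A second, dim probe set of Cacna1e ran the other way without passing (0.41 and 0.56), and with the probe sets averaged the differences were -0.30 and -0.05 and neither was called. Cacna1a (P/Q-type) was not called in its used probe set, with group means of 8.27, 8.06 and 8.16 in naïve, isotype control and anti-RGMa mice. One of its other 3 probe sets, 1459996_at, was lower in both EAE groups (log2 fold change -0.98 and -0.70).

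Of the L-type (Cav1) subunits, Cacna1c fell by 0.54 log2 in isotype control mice, and its value in anti-RGMa mice did not pass (mean 7.65 against 7.85 in naïve). Cacna1d, an L-type channel of pacemaking neurons, had means of 8.62, 8.57 and 8.68, and Cacna1f, the retinal form, of 6.22, 6.26 and 6.41. Of the T-type (Cav3) subunits, Cacna1h fell by 0.60 and 0.50 log2. With its dim second probe set averaged in, these were -0.33 and -0.02 and were not called, and without isotype control 3, 4 and 5 the first was lost too (-0.47, adjusted p = 0.0876). Cacna1g was not called, with means of 8.25, 8.01 and 8.22 that lie within the naïve SD of 0.43.

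Cacna1s, the L-type subunit that triggers contraction in skeletal muscle, was the 1 member called higher. In naïve mice it ran from 2.39 through 3.62 to 5.67. In the isotype control arrays it was 6.50, 6.17, 7.22, 9.11 and 6.95, and in anti-RGMa mice it ran from 5.32 through 6.70 to 7.24. All isotype control arrays were above all naïve arrays, and anti-RGMa mice overlapped naïve mice. The log2 fold changes were 3.37 (SE 0.63, adjusted p = 0.000323) and 2.62 (SE 0.60, adjusted p = 0.00263). The naïve signals are low, so that the size of the fold is uncertain. With 32 added to each signal before log2 it was 1.89 and 1.28.

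The mean of 18 skeletal muscle markers was 5.83, 5.43, 8.79, 12.62 and 8.99 in the isotype control arrays, from 4.79 to 8.00 in naïve mice and from 5.85 to 7.30 in anti-RGMa mice, and by limma 8 of the 18 were called higher in isotype control mice and 0 in anti-RGMa mice (1 at an unadjusted p under 0.05). Cacna1s was highest in isotype control 4, where muscle markers were highest. In isotype control 1 and 2 muscle markers lay within the naïve range and Cacna1s was at 6.50 and 6.17. With the muscle mean as a covariate the log2 fold change of Cacna1s was 2.27 in isotype control mice (adjusted p = 0.00281), and without isotype control 3, 4 and 5 it was 2.52 (adjusted p = 0.0211). Markers of other cells also differed between the groups. The mean of 14 macrophage and monocyte markers was 7.88 log2 in naïve, 11.35 in isotype control and 10.98 in anti-RGMa mice, that of 7 fibroblast markers 9.01, 11.93 and 10.34, and that of 8 T cell markers 4.33, 8.07 and 7.82. Within the isotype control group T cell markers were lowest (7.57) and fibroblast markers highest (13.62) in isotype control 4, where Cacna1s was highest. Among naïve arrays, Cacna1s (5.67) and muscle markers (8.00) were both highest in naïve 4. The fits with the muscle covariate and without isotype control 3, 4 and 5 do not measure the share of any tissue. The part of muscle, T cells, macrophages or fibroblasts in the level of Cacna1s was not tested.

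**Figure D3:**
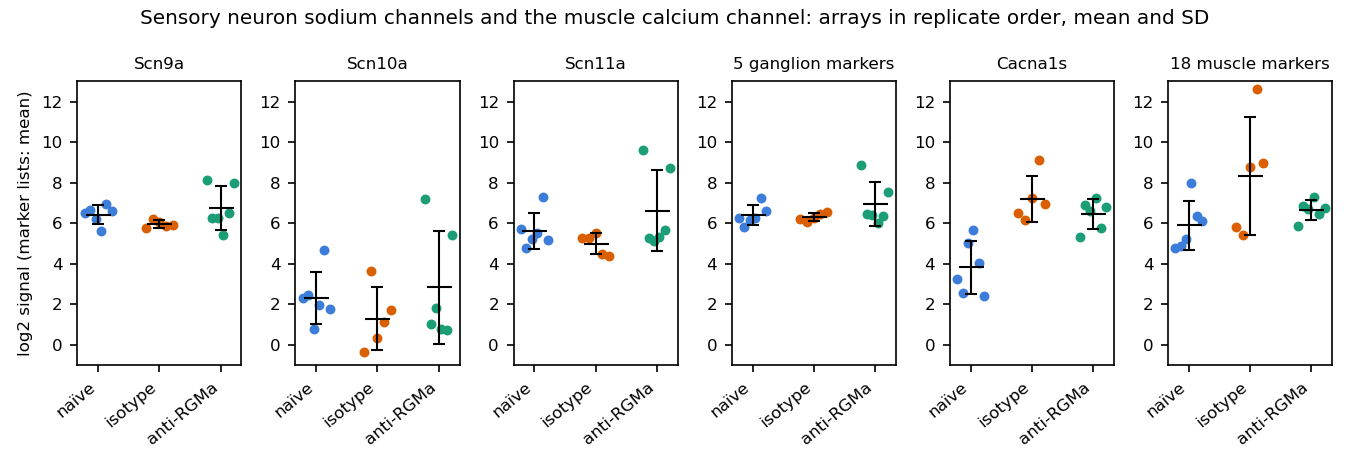
Log2 signal of 3 sensory neuron sodium channels and of Cacna1s, beside the mean log2 signal of 5 dorsal root ganglion and 18 skeletal muscle markers, with 1 point per array in replicate order and the mean with its SD per group. The first and last anti-RGMa arrays are high for all 3 sodium channels and the ganglion markers, and the fourth isotype control array is high for Cacna1s (9.11) and the muscle markers (12.62).

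Among the α2δ subunits, the extracellular partners of the calcium channel pore, Cacna2d3 showed the largest difference. It ran from 10.86 through 10.96 to 11.02 in naïve mice, was 8.99, 9.91, 10.07, 9.77 and 9.23 in the isotype control arrays and ran from 9.29 through 10.16 to 10.40 in anti-RGMa mice. No EAE array came within the naïve range. It was at 39.0% of the naïve level in isotype control mice (log2 fold change -1.36, SE 0.20, adjusted p = 4.68e-05) and at 54.0% in anti-RGMa mice (-0.89, SE 0.19, adjusted p = 0.00175). Cacna2d2 was at 51.1% and 69.9% (adjusted p = 5.14e-05 and 0.00714). Cacna2d1, the binding site of gabapentin along with Cacna2d2, was at 67.1% in isotype control mice (-0.58, SE 0.22, adjusted p = 0.0386), a call that was lost in 7 of the 17 fits without a single array. In anti-RGMa mice its mean was 10.52 against 10.96 in naïve mice and was not called, though 2 of its 5 probe sets were lower there (background 20.9%). The dim Cacna2d4, best known from the retina, had means of 5.07, 5.51 and 5.10 and was not called.

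The β subunits lie inside the cell and stabilize the pore. Cacnb2 fell by 1.02 log2 in isotype control mice and by 0.83 in anti-RGMa mice (adjusted p = 0.000105 and 0.000703). Cacnb4, the main form in many central neurons, fell by 0.80 and 0.52. Cacnb1 fell by 0.63 in isotype control mice (adjusted p = 0.00543), and in anti-RGMa mice its mean of 7.44 lay within the naïve SD of 0.28 around 7.61. Its probe sets were not of one kind, since 1426108_s_at had means of 6.64, 7.14 and 6.44 in naïve, isotype control and anti-RGMa mice.

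Nalcn fell by 0.90 log2 in isotype control mice (SE 0.16, adjusted p = 0.000156) and by 0.61 in anti-RGMa mice (SE 0.15, adjusted p = 0.00365), without overlap with naïve mice. Hcn2, the HCN channel with slow gating in spinal and thalamic neurons, was not called lower in EAE, and neither were Cacna1a, Cacna1d and Cacna1g. In naïve mice it ran from 10.32 through 10.55 to 10.97. It was 10.47, 10.66, 10.42, 10.31 and 10.35 in the isotype control arrays and ran from 10.62 through 10.92 to 11.04 in anti-RGMa mice. All isotype control arrays but isotype control 4 lay inside the naïve range, and all 6 anti-RGMa arrays lay above its median. Against naïve, the 95% interval of its log2 fold change was -0.41 to 0.10 in isotype control mice and 0.02 to 0.50 in anti-RGMa mice (adjusted p = 0.307 and 0.0774), and neither was called with all arrays. In anti-RGMa mice it was called higher without naïve 6 (0.34, adjusted p = 0.0178), without anti-RGMa 6 (0.31, adjusted p = 0.0459) and without naïve 5 (0.31, adjusted p = 0.0495). Hcn3 was dim, from 2.54 to 6.89 over all arrays, and was not called.

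**Figure D4:**
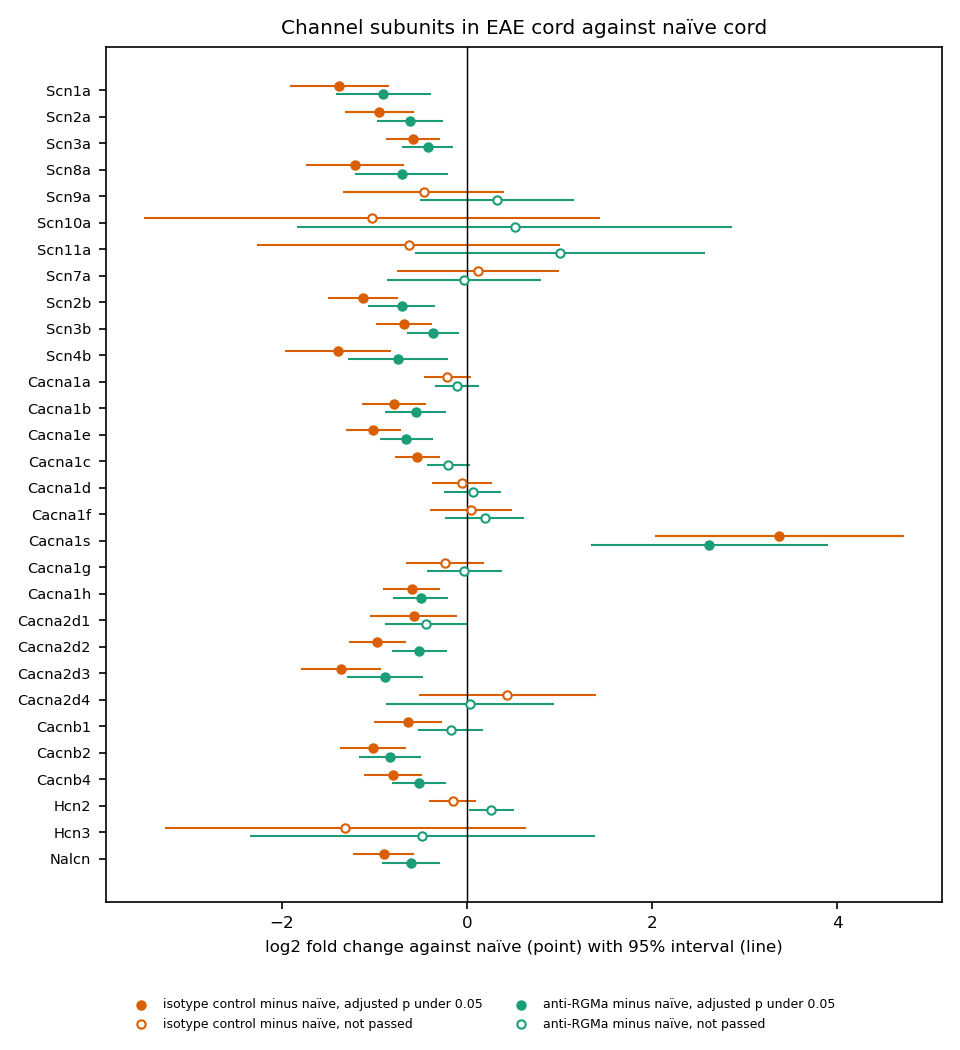
Log2 fold change against naïve mice of each member in isotype control and anti-RGMa mice, with the 95% interval. Filled points passed an adjusted p under 0.05, and most sodium and calcium channel subunits lie left of 0 in both groups, with Cacna1s on the right (3.37 and 2.62).

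The channel subunits were then read relative to neurons as a whole. Of the 14 neuron markers, 13 were lower in isotype control mice and 10 in anti-RGMa mice, with medians of -1.04 and -0.57 log2. The markers differed among themselves, from -1.56 to -0.33 in isotype control mice and from -0.94 to -0.11 in anti-RGMa mice. Elavl3 had the smallest difference in both and was called in neither (limma adjusted p = 0.0546 and 0.561). When the neuron marker mean of each array was subtracted from every gene, 2 members remained lower in both EAE groups, Scn1a and Cacna2d3 (background 1.16% and 1.6%). Relative to neuron markers, the log2 difference of Cacna2d3 from naïve was -0.30 in each group (SE 0.10 and 0.10, adjusted p = 0.0181 and 0.0217), and the first call was lost without isotype control 1 and 5 (-0.22, adjusted p = 0.0961). That of Scn1a was -0.32 in each group (SE 0.13 and 0.12, adjusted p = 0.0385 and 0.0466), and it was lost in 8 and 12 of the 17 fits without a single array. Scn2a, Scn8a, Scn2b, Cacna1e, Cacna2d2, Cacnb2 and Nalcn were called in neither direction on this scale. For Nalcn the 95% interval in isotype control mice was -0.06 to 0.39, and for Scn8a -0.44 to 0.14.

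Relative to neuron markers 15 members were higher in isotype control mice and 6 in anti-RGMa mice, against a background of 73.1% and 46.6% of all genes, so that the members' shares are below it. The median of all genes on this scale was 1.02 log2 in isotype control and 0.56 in anti-RGMa mice. Hcn2 had the smallest adjusted p of the 17 brighter members in both groups and was 0.91 log2 higher relative to neuron markers in isotype control mice (SE 0.17, adjusted p = 0.000166) and 0.85 higher in anti-RGMa mice (SE 0.16, adjusted p = 0.000682). Cacna1d was 1.01 and 0.65 higher (adjusted p = 0.00339 and 0.0494). In isotype control mice both lie below the median of all genes, and in anti-RGMa mice above it. The first call of Cacna1d was lost without isotype control 1 and 5 (0.53, adjusted p = 0.0541). Its second call, in anti-RGMa mice, was the weaker one and was lost in 11 of the 17 fits without a single array. The choice of reference matters: with the mean of 9 presynaptic genes subtracted instead, 9 members were lower in isotype control mice (background 5.27%) and 7 in anti-RGMa mice (background 5.22%), 6 and 2 were higher (background 53.5% and 31%), and Hcn2 was among the higher in both. The difference of Hcn2 relative to neuron markers held its call in each of the 30 alternative fits run for either comparison.

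**Figure D5:**
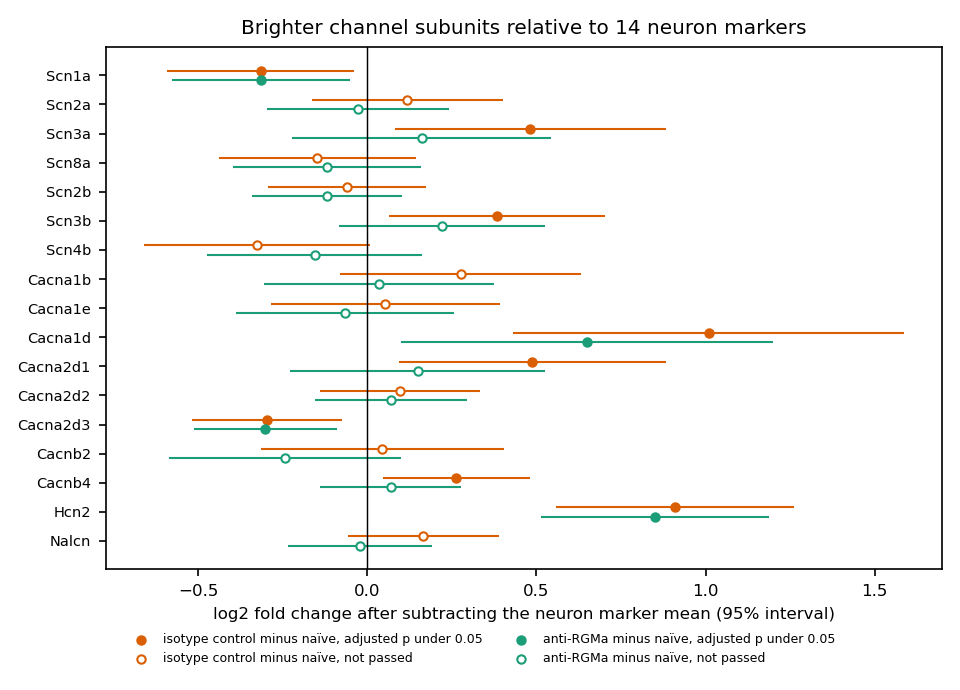
Log2 fold change against naïve mice after subtraction of the mean of 14 neuron markers in each array, with the 95% interval, for the 17 members whose mean signal is above the median of genes. Hcn2 and Cacna1d lie to the right in both EAE groups, and Scn1a and Cacna2d3 lie left of 0 in both.

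Between anti-RGMa and isotype control mice the members lay higher with anti-RGMa, and no single member passed adjustment. By limma 0 of 30 members had an adjusted p under 0.05 in either direction (background 0% lower and 0.0055% higher). At an unadjusted p under 0.05, 9 members were higher and 0 lower, against a background of 9.01% and 6.77% of all genes. The difference was above 0 in 27 of 30 members, against 9443 of 18194 genes. Its median was 0.32 log2 in the members and 0.01 in all genes. All 14 neuron markers were above 0, with a median of 0.48. Relative to neuron markers the median was -0.15 in the members and -0.46 in all genes. Where the unadjusted p had to be under 0.05 and the fold to exceed 1.5, Scn4b alone passed in the fit over genes (background 1.22% for higher and 2.72% for lower). In the limma fit over probe sets, Scn11a, 1439889_at of Scn8a and 2 dim probe sets of Cacna2d4 (1.45 and 2.04 log2) were higher too. Lower ones were 1442208_at of Scn8a and 1426108_s_at of Cacnb1 (-0.69 log2). At the unadjusted p alone, 7.38% of all probe sets were higher and 6.08% lower.

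By limma Hcn2 had the smallest p among the members (0.42 log2 higher with anti-RGMa, SE 0.12, unadjusted p = 0.00316, adjusted p = 0.209), and it was above the isotype control mean in 6 of 6 anti-RGMa arrays. Cacna2d2 was 0.45 higher (SE 0.15, limma unadjusted p = 0.00727, adjusted p = 0.223) in 5 of 6, which turned to -0.23 with its probe sets averaged, and Cacna1c was 0.34 higher (SE 0.11, limma unadjusted p = 0.00923, adjusted p = 0.225) in 6 of 6. Scn4b was 0.65 higher, Cacna2d3 0.47, Cacnb1 0.46, Scn2b 0.42, Cacna1e 0.36 and Scn3b 0.31, each in 5 of 6 arrays. For each of these 6 genes the array below the isotype control mean was anti-RGMa 6. Without single arrays, Hcn2, Cacna2d2, Cacna1c and Cacnb1 kept an unadjusted p under 0.05 in all 17 limma fits, and the other 5 lost it in 4 to 7 of them. Without isotype control 1 and 5 together, the arrays with the lowest neuron markers of that group, Cacnb1 and Hcn2 alone kept it (0.48 and 0.40 log2, limma unadjusted p = 0.0427 and 0.0185). Without isotype control 3, 4 and 5, Cacnb1 and Hcn2 lost it, as did Scn2b and Scn4b. With the probe sets of each gene averaged, Scn4b, Cacna2d3 and Hcn2, which have 1 probe set each, alone kept it. Scn1a and Scn8a, 0.48 and 0.51 higher, did not pass, with 95% intervals of -0.06 to 1.01 and -0.02 to 1.03.

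The comparison of the antibodies turned on anti-RGMa 6. Without this array 8 members had an adjusted p under 0.05 by limma, all higher with anti-RGMa, against 5.46% of all genes higher and 2.8% lower. They were Scn1a, Scn2a, Scn2b, Scn4b, Cacna2d2, Cacna2d3, Cacnb1 and Hcn2, with log2 differences from 0.47 to 0.85. Anti-RGMa 6 had the lowest neuron marker mean of its group (11.69) and the highest macrophage and monocyte mean (11.66), and no record in the labels sets it apart. Without it, 12 instead of 15 members were lower in anti-RGMa than in naïve mice (background 18.8%). Relative to neuron markers 0 members had an adjusted p under 0.05 between the antibody groups with all arrays (background 0.011% lower and 0.0055% higher by limma, and 1 member, Cacna1h, lower at an unadjusted p under 0.05 against a background of 43.1%), and the difference of Hcn2 was then -0.06 (SE 0.17).

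Genes that hold these channels in place or tune them were read from lists and counted in the same way, against the background of 27.2% lower and 24.6% higher genes in isotype control and 21.6% and 20.3% in anti-RGMa mice. Of 11 scaffold genes of the node of Ranvier and initial segment, 7 were lower and 1 higher in isotype control mice, and 6 and 1 in anti-RGMa mice. Cntnap2, which clusters channels beside the node, fell by 1.38 and 0.91 log2, and Nrcam, an adhesion molecule of the node, rose by 0.69 and 0.59. All 4 fibroblast growth factor homologous factors, which bind the tail of the sodium channel, were lower in isotype control mice and 3 of 4 in anti-RGMa mice, with Fgf12 at -1.44 and -0.98. Of 8 calcium channel γ subunits and related AMPA receptor proteins 4 and 1 were lower and 0 higher, and Cacng3 fell by 1.94 and 1.36. The 1 of 8 in anti-RGMa mice is below the background.

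Of 6 measured RGK and STAC regulators of calcium channels, 2 were lower and 2 higher in isotype control mice, and 1 and 2 in anti-RGMa mice. Rrad, a GTPase that inhibits L-type current, rose by 1.91 and 1.04 log2. Of 9 presynaptic partners 7 were lower and 1 higher in isotype control mice, and 4 and 0 in anti-RGMa mice, with Erc2, an active zone protein, at -1.18 and -0.76. Of 5 partners of HCN channels and Nalcn, 3 were lower and 0 higher in either group, and Unc80, a subunit of the Nalcn complex, fell by 1.51 and 1.01. Where a list had 0 higher, limma gave 0 at an unadjusted p under 0.05 too, except 1 of the γ subunit genes in anti-RGMa mice. Between the antibody groups 0 genes of these lists passed adjustment by limma (background 0% lower and 0.0055% higher). At an unadjusted p under 0.05 the background was 9.01% of all genes higher with anti-RGMa and 6.77% lower. Higher were 7 of 11 scaffold genes, 1 of 4 homologous factors and 0 of 8 γ subunit genes. So were 1 of 6 regulators, 3 of 9 presynaptic partners and 1 of 5 HCN or Nalcn partners, and 1 regulator, Rrad, was lower.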

How the data were processed

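RNA was measured on 1-colour Affymetrix Mouse Genome arrays. The authors computed the deposited signal intensity values with MAS 5.0 and global scaling, on a linear scale. Tools in the submitters' processing notes are affy and MAS5. The version of affy is not given in the sources used here. Each array had the same mean of 500 after trimming 2% from each end, and no 2 arrays were identical. Of 45101 probe sets, 34958 had 1 annotated gene, 932 had several and 9211 had none listed here. Gene IDs of 34754 matched the RefSeq table of GRCm38.p6. Without detection calls, low signals carry background, and the number of arrays limits the precision.

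Log2 of these values, unfiltered and without an offset, entered limma 3.58.1 (R 4.3.3, lmFit and eBayes) in 1 fit over the 3 groups, with adjustment over 18194 genes. A fit over all probe sets and a fit after subtracting the mean of 14 neuron markers from each array were run in the same way. The fold threshold of 1.5 at an unadjusted p under 0.05 follows the legend for the comparison of the antibodies. Members are given by log2 level, log2 fold change or percent of the naïve level. Differences from naïve are given for those with an adjusted p under 0.05. Fold changes between antibodies are given for those with an unadjusted p under 0.05, and 1 to 3 genes are named per list. Some values outside this rule were added after they were seen. The members, the 13 cell type lists and the 6 partner lists were chosen with earlier results of these data known. Samples with the same replicate number deviated from their group means with correlations from -0.06 to 0.07 over 16 pairs, so that the numbers were not used as pairs. The fit was tested on simulated data. Figures were drawn with matplotlib 3.10.9.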

Additional observations from a re-analysis of the deposited data

Results flagged for a closer look

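Single arrays stood apart from the rest of their group in 9 of 90 groups of arrays by Dixon's test, of which chance gives about 1 in 20. In 5 of the 9 the array was anti-RGMa 6, which was the lowest of its group for Scn1a (9.94 against 11.09 to 11.49 in the others), Scn8a (10.33 against 11.31 to 11.76), Scn4b (10.39 against 11.38 to 11.81), Cacna2d3 (9.29 against 10.08 to 10.40) and Cacnb1 (6.71 against 7.48 to 7.84). Isotype control 1 was lowest for Cacna1g (7.54 against 8.09 to 8.17). Naïve 5 was highest for Scn11a (7.30 against 4.78 to 5.72), naïve 6 lowest for Cacna2d4 (2.61 against 5.48 to 5.69) and naïve 2 lowest for Hcn3 (2.54 against 6.03 to 6.72).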

How the results depend on the processing

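Of the 19 members called in isotype control mice against naïve, 14 kept their direction and call in every alternative tried, and of the 16 called in anti-RGMa mice 10 did. Of the 9 members past an unadjusted p of 0.05 between the antibodies, 0 did. Of the calls against naïve in isotype control mice, those of Cacna1h and Cacnb1 were lost without isotype control 3, 4 and 5. That of Cacna2d1 was lost without isotype control 1 and 5. In anti-RGMa mice the calls of Scn3a, Scn8a and Scn4b were lost without anti-RGMa 1 and 6. Averaging the probe sets of a gene turned Scn3a to 0.22 and 0.06 against naïve in the EAE groups, Cacna2d2 to -0.23 between the antibodies, and, relative to neuron markers in isotype control mice, Scn3b to -0.05. With presynaptic genes as the reference Scn3b was at -0.02 and Cacnb4 at -0.14. Without single arrays, the lower members ranged from 17 to 18 in isotype control mice and from 12 to 15 in anti-RGMa mice, and the higher from 1 to 1 and from 1 to 2. Relative to neuron markers these ranges were 1 to 2 and 1 to 2 for lower, and 9 to 16 (9 without isotype control 5) and 2 to 8 (2 without anti-RGMa 6) for higher. Between the antibodies they were 0 to 8 at an adjusted p under 0.05, 0 to 3 relative to neuron markers, and, at the 1.5-fold threshold, 0 to 5 higher (0 without isotype control 1, 5 without anti-RGMa 6) and 0 to 0 lower. Among the brighter part of the genes, 0 members were higher in isotype control mice, since Cacna1s is dim, and 6 and 2 were higher relative to neuron markers. Other counts against naïve moved with the quantile scaling (2 higher in anti-RGMa mice, and relative to neuron markers 1 and 1 lower and 3 higher in anti-RGMa mice), with array weights (2 higher in anti-RGMa mice), and with an offset of 32 (12 higher relative to neuron markers in anti-RGMa mice). Relative to neuron markers, lower members numbered 1 and 1 with a muscle covariate, 0 in anti-RGMa mice with a ganglion covariate (where 2 were higher), 1 and 1 without isotype control 3, 4 and 5 (where 6 were higher in isotype control mice), 0 in anti-RGMa mice without anti-RGMa 1 and 6, and 9 and 7 with presynaptic genes (where 6 and 2 were higher). Without isotype control 1 and 5, 0 members were lower and 7 higher relative to neuron markers in isotype control mice, and 0 were higher at the 1.5-fold threshold between the antibodies. Between the antibodies 1 member passed adjustment without anti-RGMa 1 and 6, and 1 relative to neuron markers there and with the offset. At the 1.5-fold threshold 3 were higher with averaged probe sets, 2 with a variance trend, 5 without anti-RGMa 1 and 6 and 0 with only those 2 groups fitted. With the replicate block, 17 and 14 members were lower, with Scn4b at -0.74 in anti-RGMa mice no longer called (adjusted p = 0.0518), and 1 instead of 2 was lower relative to neuron markers in anti-RGMa mice. The leaving out of anti-RGMa 1 and 6, that of isotype control 1 and 5 and the alternatives relative to neuron markers were chosen after seeing the data. The cause of these shifts was not tested. Dim signals limit what can be said of Scn10a, Cacna1s, Cacna2d4 and Hcn3.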
